A study of Mus musculus with 36 samples.

Results

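Metabolic nuclear receptors and hepatocyte transcription factors were followed as a list of 38 genes in mouse liver. The list holds 26 nuclear receptor genes outside the clock and bile acid receptors, and 12 liver factors, namely Hnf4a, Hnf4g, 3 Foxa, 3 C/EBP and 3 Krüppel-like genes and Prox1. A gene was taken as measured when the scanner files gave its name to a probe that was well above background on at least 6 of 36 arrays, and the brightest such probe stood for the gene. The array carried 77 probes for the 38 genes, and 66 probes of 37 genes passed, among 23054 genes tested in all. Vdr, the vitamin D receptor, did not pass, because its probes were well above background on 0 of 36 arrays. The gene nearest the limit on the inner side was Hnf4g, whose probe was well above background on 10 of 36 arrays.

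Liver RNA came from 36 male C57BL/6J-crossed mice aged 11 weeks with free access to chow. They were sampled at Zeitgeber time (ZT) 8, 12 or 16, counted in hours from the start of light, and the dark phase began at ZT12. IRLKO mice, called knockout here, carried floxed Insr alleles and a tamoxifen-inducible Cre driven by the transthyretin promoter (TTR-CreTam), which acts in hepatocytes. IRLWT mice, called control, kept the receptor (IRhep+/+). Each genotype and time had 6 mice with 1 array each, and the labels give neither the timing of tamoxifen nor whether controls carried Cre or floxed alleles. The comparisons ask how hepatocyte insulin receptor loss alters transcripts around the onset of the dark, feeding phase.

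Nuclear receptors are transcription factors that bind a small lipophilic ligand, such as a retinoid, thyroid hormone, an oxysterol, a steroid or a foreign compound, and many pair with a retinoid X receptor on DNA. Orphan receptors have no agreed natural ligand and are set mainly by how much of them is made. HNF4A, the FOXA pioneer factors, C/EBP proteins and PROX1 keep hepatocyte genes open and active, while insulin restrains FoxO proteins, which raise the genes of fasting in its absence.

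The RefSeq table (build GRCm38.p6) held 53 promoters of 34 of the 38 genes, and the 250 bases before each start were searched on both strands. The Rarb promoter is shown because Rarb was higher in knockout at every time. Its window lies at chr14:16575477-16575726 on the minus strand, and capitals mark a direct repeat, GTTCA and again GTTCA after 6 other bases, the form of element that retinoic acid receptors bind.

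Rarb: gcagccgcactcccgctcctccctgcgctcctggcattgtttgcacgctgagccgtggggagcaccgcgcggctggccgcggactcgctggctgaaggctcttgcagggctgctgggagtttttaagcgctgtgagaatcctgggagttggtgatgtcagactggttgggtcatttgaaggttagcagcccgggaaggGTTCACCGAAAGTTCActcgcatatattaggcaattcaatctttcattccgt

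That repeat was found in 22 of 32851 promoters of the same length (0.0670%), and in 1 of the 53 member promoters, 52 to 37 bases before the Rarb start. It was looked for after the values were seen, so its rarity is a description and no test. The Nr4a2 promoter is shown because Nr4a2 had the widest genotype difference of the list. It lies at chr2:57124004-57124253 on the minus strand, and capitals mark TGACG or its complement, the core that cyclic AMP response factors bind.

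Nr4a2: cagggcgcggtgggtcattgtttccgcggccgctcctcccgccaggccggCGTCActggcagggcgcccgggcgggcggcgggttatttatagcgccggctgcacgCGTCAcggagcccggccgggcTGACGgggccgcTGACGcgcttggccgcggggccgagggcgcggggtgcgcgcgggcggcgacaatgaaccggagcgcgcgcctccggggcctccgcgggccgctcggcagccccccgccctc

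TGACG, also looked for after the values were seen, occurred 4 times in that window, the most in any member promoter. That number was reached by 45 of the 32851 promoters (0.137%), a description and no test. At least 1 copy stood in 17.8% of all promoters and in 10 of the 53 member promoters (18.9%). The FoxO core GTAAACA, in capitals in the windows that follow, stood in 4 of the 53 member promoters (7.55%) against 3.17% of all. These windows lie at chr12:57546234-57546264 (Foxa1, minus strand), chr13:78196579-78196609 (Nr2f1, minus strand, with the core on the other strand), chr17:34032279-34032309 (Rxrb, plus strand) and chr19:23141114-23141144 (Klf9, plus strand).

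Foxa1: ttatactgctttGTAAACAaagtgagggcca
Nr2f1: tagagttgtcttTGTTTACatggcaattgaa
Rxrb: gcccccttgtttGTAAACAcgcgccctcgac
Klf9: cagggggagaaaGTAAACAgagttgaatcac

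Of these 4 genes, Nr2f1 was called higher in knockout at all 3 times, Foxa1 at ZT8 alone and Rxrb at ZT12 alone, while Klf9 was called lower at ZT16, so the match went with no single direction. The E-box CACGTG stood in 4 of the 53 promoters (7.55%, those of Nr1i3, Rara, Thrb and Klf15) against 6.02% of all. The D-box TTATGTAA and the longer element bound by REV-ERB and ROR stood in 0 of the 53, against 0.819% and 0.177% of all promoters. No matches of different motifs overlapped, and a match is a run of letters, not a shown binding site.

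Between 53.7% and 63.1% of spots were well above background, depending on the array, and the 75th percentile of signal lay between 311 and 525 intensity units. Values are log2 signals relative to that percentile, which is 0, and levels of different probes cannot be ranked against each other. Insr itself ranged from -1.86 to -1.01 over the control arrays and from -3.95 to -2.94 over the knockout arrays, with log2 ratios of -1.77, -1.88 and -1.65 at ZT8, ZT12 and ZT16 (adjusted p at most 2.9e-11, limma). Whether its probe reads the deleted exon was not analysed here. All 8 hepatocyte markers searched were well above background on all 36 arrays, and 2, 4 and 3 of them were called lower and 0, 1 and 0 higher in knockout at ZT8, ZT12 and ZT16. Markers of other cells moved with genotype too: none of 8 stellate cell and fibroblast markers and none of 7 endothelial markers was called at ZT8, but 4 and 6 were higher in knockout at ZT12, and 4 and 5 at ZT16. Macrophage markers were called higher for 2, 5 and 3 of 7 at the 3 times, and lymphocyte markers for 2, 3 and 3 of 4, with 1 lower at ZT12. Over all genes tested, 16.7%, 19.6% and 19.9% were called higher at ZT8, ZT12 and ZT16. Of 3 red cell markers, 0, 2 and 1 were higher and 1 lower at each time, and the 2 pancreas markers that passed were lower throughout, with medians of -1.33, -0.97 and -1.38. In bulk liver, fewer cells of a type and less RNA per cell cannot be told apart.

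Of the 37 genes, 17 were called at ZT8 (adjusted p under 0.05, limma), or 45.9%, against 35.4% of all genes tested, with 9 higher (16.7% of all genes) and 8 lower (18.7%) in knockout. At ZT12, 20 were called, or 54.1%, against 42.2% of all genes, with 10 higher and 10 lower (19.6% and 22.6% of all genes). At ZT16, 19 were called, or 51.4%, against 39.9%, with 6 higher, against 19.9% of all genes, and 13 lower, against 4611 of the 23054 genes. The median log2 ratio of the 37 genes was -0.04, -0.12 and -0.17, beside 0.01, -0.02 and 0.00 over all genes, and the median absolute ratio was 0.25, 0.31 and 0.31, beside 0.25, 0.29 and 0.28. The 2 genotypes were fully apart, with no overlap of their arrays, in 7, 14 and 9 of the 37, against 15.5%, 21.3% and 19.2% of all genes. The shares called lay above those of all genes by a few genes, a gap that was not tested. With just the ZT8 groups in the fit, 10 genes were called at ZT8. By their brightest probes, the receptors Nr2f1, Rarb, Rarg and Esrra were called higher at all 3 times, and Nr2f6, Nr3c2, Rxrg, Thrb and Cebpa lower at all 3. By its brightest probe, no call was made at any time for 9 genes: Nr2c1, Nr5a2, Nr6a1, Ppard, Rxra, Hnf4g, Foxa2, Cebpb and Cebpd. Of the 20 genes with at least 2 probes past the filter, 0 had probes called in opposite directions in a genotype comparison. That does not mean that probes agreed: several calls were not shared by another probe, as for Nr2f6 at ZT8 (-0.43 against 0.06).

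**Figure D1:**
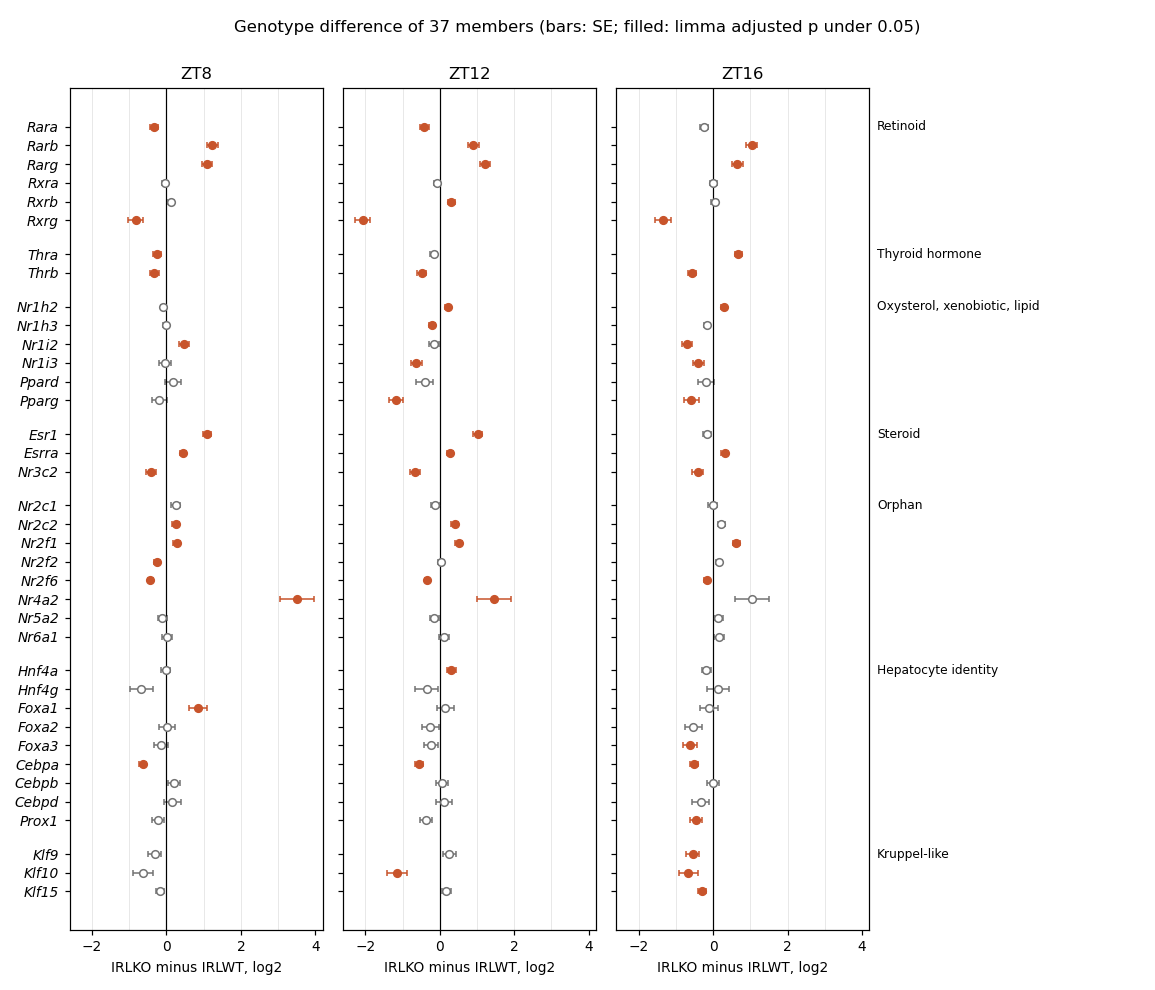
Knockout (IRLKO) minus control (IRLWT) log2 ratio of the 37 genes at ZT8, ZT12 and ZT16, in order of role, with the standard error of the limma fit as bars and genes at an adjusted p under 0.05 filled. Rarb and Rarg lie to the right and Rxrg to the left in all 3 panels, Nr4a2 has the widest ratio (3.51 at ZT8), and Esr1 is at 1.09, 1.01 and -0.17.

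The retinoid receptors split by subtype. Rarb and Rarg, which bind all-trans retinoic acid, were about 2-fold higher in knockout, Rxrg, a retinoid X receptor partner subunit, was lower, and Rara was modestly lower. Rarb (probe at chr14:17263511-17263570, minus strand, mm9) ran in control from -0.26 to 0.12 (median -0.09) at ZT8, from 0.03 to 0.20 (0.08) at ZT12 and from -0.53 to -0.08 (-0.19) at ZT16. In knockout it ran from 0.66 to 1.50 (1.23), from 0.54 to 1.47 (0.97) and from 0.46 to 1.38 (0.69). No knockout array reached down to a control array at any of the 3 times. The differences were 2.35-fold at ZT8 (log2 ratio 1.23, SE 0.15, adjusted p = 8.5e-08), 1.87-fold at ZT12 (0.90, SE 0.15, adjusted p = 1e-05) and 2.05-fold at ZT16 (1.04, SE 0.15, adjusted p = 1.3e-06). A dimmer Rarb probe gave log2 ratios of 1.00, 0.79 and 0.90. Within single wash batches the ratios of Rarb lay between 0.76 and 1.55.

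Rarg (probe at chr15:102065371-102065430, minus strand, mm9) ran in control from 0.50 to 0.79 (median 0.67), from 0.46 to 0.77 (0.51) and from 0.65 to 1.46 (0.89) at ZT8, ZT12 and ZT16. In knockout the ranges were 1.41 to 1.92 (1.86), 1.28 to 2.17 (1.84) and 1.33 to 1.90 (1.64). The genotypes stood apart at ZT8 and ZT12 and met at ZT16, where the highest control array passed the lowest knockout arrays. The rise was 2.14-fold at ZT8 (log2 ratio 1.09, SE 0.14, adjusted p = 1.7e-07), 2.32-fold at ZT12 (1.21, adjusted p = 2.1e-08) and 1.57-fold at ZT16 (0.65, adjusted p = 2.6e-04). The ZT16 value of Rarg was 0.08 within 1 wash batch and 0.87 within another. Stellate cells store retinoids and express retinoid receptors, and all 8 of their markers passed the filter. Marker signals were summed unlogged and the sum taken to log2, so the brightest markers weigh most in it. The summed level of the stellate cell markers ran from 5.52 to 6.02 in control and from 5.36 to 6.72 in knockout at ZT8, where none was called, and from 5.22 to 6.04 against 6.13 to 6.33 at ZT12. At ZT16 it ran from 5.59 to 6.38 against 6.12 to 6.56, and its part in the later values of Rarb and Rarg was not tested.

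Rxrg (probe at chr1:169569624-169569683, plus strand, mm9) ran in control from 0.47 to 1.12 (median 0.67) at ZT8, from 0.49 to 1.42 (0.98) at ZT12 and from 0.76 to 1.23 (1.09) at ZT16. The knockout arrays lay between -0.76 and 0.62 (-0.02), between -1.84 and -0.43 (-1.24) and between -1.22 and 0.49 (-0.33). Only at ZT8 did the groups overlap. Rxrg was 1.77-fold lower at ZT8 (log2 ratio -0.83, SE 0.21, adjusted p = 0.00248), 4.21-fold lower at ZT12 (-2.07, adjusted p = 3.5e-09) and 2.55-fold lower at ZT16 (-1.35, adjusted p = 6e-06). Its partners Rxra and Rxrb had smaller ratios. Rxra, the main hepatic subtype, had ratios of -0.04, -0.07 and 0.01 by its brightest probe, none called, but a dimmer probe was called lower at ZT8 (-0.50, adjusted p = 0.00839). Rxrb was called only at ZT12 (0.31, adjusted p = 0.0106), and not with just these groups in the fit (0.29, adjusted p = 0.0603). Rara was lower at ZT8, with a ratio of -0.34 (SE 0.11, adjusted p = 0.0166), and at ZT12, with -0.41 (adjusted p = 0.00322). At ZT16 it was at -0.25 (adjusted p = 0.0732). Without replicate 3 of the ZT8 knockout group, the ZT8 value of Rara was -0.27 (adjusted p = 0.0557).

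**Figure D2:**
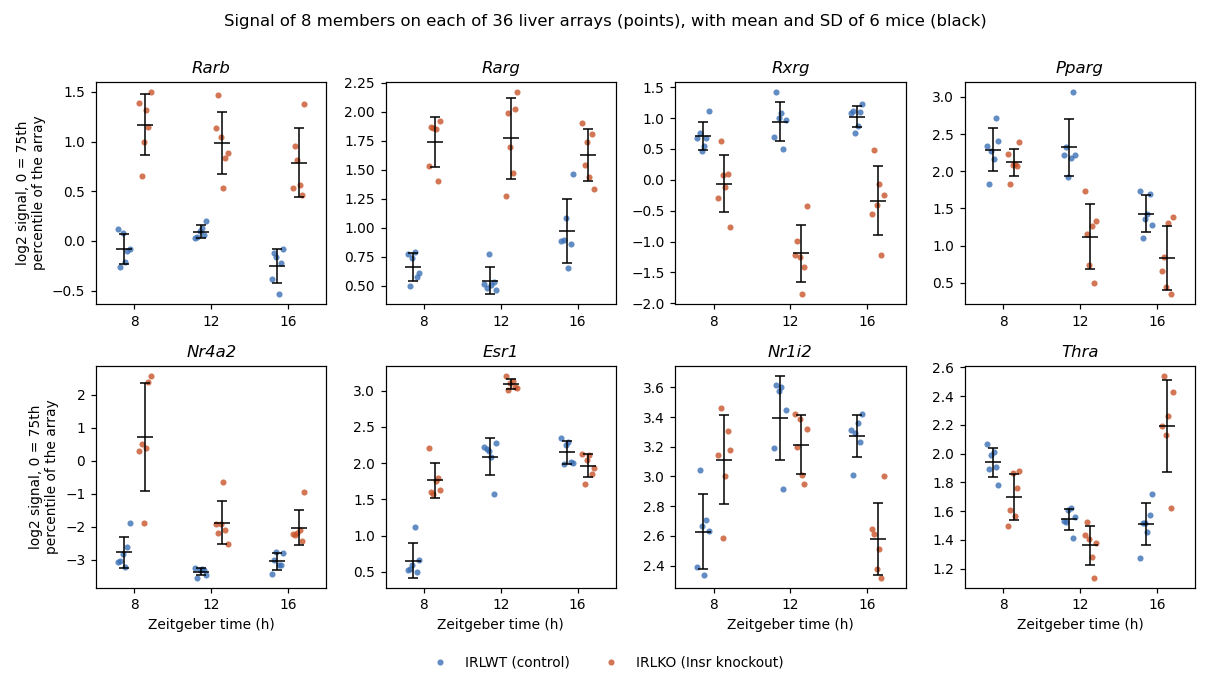
Log2 signal of 8 genes on each array (points), relative to the array's 75th percentile, by Zeitgeber time in control (blue) and knockout (orange), with the mean and SD of 6 mice in black. Rarb and Rarg are higher and Rxrg lower in knockout throughout, Pparg separates at ZT12, Nr4a2 is high and scattered (-1.89 to 2.56) in knockout at ZT8, and the order of the genotypes turns between ZT8 and ZT16 for Nr1i2 and Thra.

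The thyroid hormone receptors differed in course. Thrb, the main hepatic receptor for the hormone, was lower in knockout at all 3 times, with log2 ratios of -0.33 (SE 0.11, adjusted p = 0.0249), -0.49 (adjusted p = 0.00102) and -0.57 (adjusted p = 1.9e-04). The ZT8 call was lost without replicate 2 of the control group (-0.28, adjusted p = 0.07) or replicate 3 of the knockout group (-0.21, adjusted p = 0.109). A dimmer Thrb probe was not called at ZT8 (-0.21, adjusted p = 0.301), but was called lower at ZT12 and ZT16 (-0.51 and -0.66). Thra (probe at chr11:98626356-98626415, plus strand, mm9) ran in control from 1.78 to 2.06 (median 1.95) at ZT8, from 1.42 to 1.62 (1.55) at ZT12 and from 1.27 to 1.72 (1.52) at ZT16. In knockout it ran from 1.50 to 1.88 (1.69), from 1.14 to 1.52 (1.40) and from 1.62 to 2.54 (2.23). Knockout arrays thus sat a little below control at ZT8 and ZT12 and mostly above at ZT16, with overlap each time. Thra was 1.6-fold higher at ZT16 (log2 ratio 0.68, SE 0.10, adjusted p = 3.3e-06), while the ZT8 ratio was -0.26 (adjusted p = 0.0452) and that of ZT12 -0.17 (adjusted p = 0.189). The ZT8 call did not hold in 7 of 11 alternatives or without any of 9 arrays, among them replicate 1 of the control group (-0.22, adjusted p = 0.101) and replicate 1 of the knockout group (-0.22, adjusted p = 0.0988). The 2 dimmer Thra probes were called lower at ZT8 (-0.41, adjusted p = 0.0043, and -0.455, adjusted p = 0.00282). At ZT16 they gave 0.45 and 0.55. The locus overlaps Nr1d1, the clock repressor REV-ERB alpha, on the other strand. Nr1d1 had ratios of -0.67 (adjusted p = 0.0369), -0.43 (adjusted p = 0.172) and 0.61 (adjusted p = 0.0531), and its part in the Thra signal was not tested.

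Among the receptors for oxysterols, foreign compounds and fatty acids, Nr1i2 turned with time, Pparg and Nr1i3 were lower late, and Nr1h2 and Nr1h3 moved little. Nr1i2 encodes the pregnane X receptor (PXR). Its probe (chr16:38248745-38248804, minus strand, mm9) ran in control from 2.33 to 3.04 (median 2.65) at ZT8, from 2.91 to 3.62 (3.51) at ZT12 and from 3.01 to 3.42 (3.30) at ZT16. The knockout ranges were 2.59 to 3.46 (3.16), 2.95 to 3.42 (3.26) and 2.32 to 3.00 (2.56). Control arrays were thus lowest at ZT8 and knockout arrays at ZT16, ZT16 being the time without overlap. Nr1i2 was 1.39-fold higher in knockout at ZT8 (log2 ratio 0.47, SE 0.14, adjusted p = 0.0074) and 1.64-fold lower at ZT16 (-0.71, adjusted p = 1.2e-04), with -0.17 between them (adjusted p = 0.347). With just the ZT8 groups in the fit, the ZT8 value was 0.50 (adjusted p = 0.0517). Nr1i3, the constitutive androstane receptor (CAR), was at -0.05 at ZT8 (adjusted p = 0.85), lower without overlap at ZT12 (-0.63, SE 0.16, adjusted p = 0.00169) and at -0.40 at ZT16 (adjusted p = 0.042). The last call was lost without any of 7 ZT16 arrays, in the widest case replicate 4 of the control group (-0.34, adjusted p = 0.102). It was also lost in 3 of 11 alternatives, among them quantile normalization (-0.35, adjusted p = 0.0531).

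Pparg, a driver of lipid storage that is low in lean liver, was read by a probe at chr6:115440213-115440272 (plus strand, mm9). Control arrays ran from 1.83 to 2.71 (median 2.31) at ZT8, from 1.92 to 3.06 (2.22) at ZT12 and from 1.1 to 1.73 (1.39) at ZT16. Knockout arrays ran from 1.83 to 2.39 (2.10), from 0.50 to 1.74 (1.21) and from 0.35 to 1.38 (0.75). The genotypes overlapped at ZT8 and ZT16 and stood apart at ZT12, where the knockout median was below its ZT8 value and the control median near it. The ratio was -0.19 at ZT8 (adjusted p = 0.496), -1.18 at ZT12 (2.26-fold lower, SE 0.20, adjusted p = 1.8e-05) and -0.58 at ZT16 (adjusted p = 0.0198). Without replicate 1 of the ZT16 control group or replicate 5 of the ZT16 knockout group the last value was -0.50 or -0.49 (adjusted p = 0.0589 for either). Ppard, a receptor for fatty acids that promotes their oxidation, was called at no time, with ratios of 0.18, -0.41 and -0.19. Nr1h2 (LXR beta; chr7:51805013-51805072, minus strand, mm9) was 1.16-fold higher at ZT12 (0.21, SE 0.07, adjusted p = 0.0153) and 1.22-fold at ZT16 (0.29, adjusted p = 0.0015). Its control arrays ran from 3.38 to 3.57 (median 3.47), from 3.14 to 3.28 (3.21) and from 3.05 to 3.40 (3.16), and its knockout arrays from 3.23 to 3.59 (3.35), from 3.27 to 3.58 (3.42) and from 3.21 to 3.62 (3.50). The genotypes overlapped at every time, and with the mean of its 2 probes the later ratios were 0.14 (adjusted p = 0.244) and 0.16 (adjusted p = 0.163). Nr1h3 (LXR alpha) was called at ZT12 (-0.21, adjusted p = 0.0205), a call lost without replicate 5 of that control group (-0.16, adjusted p = 0.0841) or replicate 6 of that knockout group (-0.17, adjusted p = 0.0751). It was also lost with quantile normalization (-0.14, adjusted p = 0.159) and in the authors' table (-0.07, adjusted p = 0.459).

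Esr1, the estrogen receptor alpha gene, was about 2-fold higher in knockout at ZT8 and ZT12 and not at ZT16. Its brightest probe (chr10:5341167-5341226, minus strand, mm9) ran in control from 0.49 to 1.12 (median 0.57) at ZT8, from 1.57 to 2.28 (2.18) at ZT12 and from 1.99 to 2.34 (2.13) at ZT16. In knockout it ran from 1.57 to 2.21 (1.69), from 3.01 to 3.20 (3.08) and from 1.71 to 2.12 (1.99). The 6 knockout arrays lay above all control arrays at ZT8 and ZT12. At ZT16 they overlapped the lower control arrays and reached further down (lowest 1.71 against 1.99). Log2 ratios were 1.09 (2.13-fold, SE 0.12, adjusted p = 1.1e-08), 1.01 (2.02-fold, adjusted p = 3e-08) and -0.17 (adjusted p = 0.262). All 7 Esr1 probes passed the filter and were called higher at ZT8, by 0.82 to 2.58. At ZT12, 6 of the 7 were called higher, the exception being at 0.76 (adjusted p = 0.077). At ZT16 their ratios ran from -0.59 to 0.34, and 1 of the 7 was called, as lower (-0.59, adjusted p = 0.0363). Which transcript each probe reads was not analysed here.

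**Figure D3:**
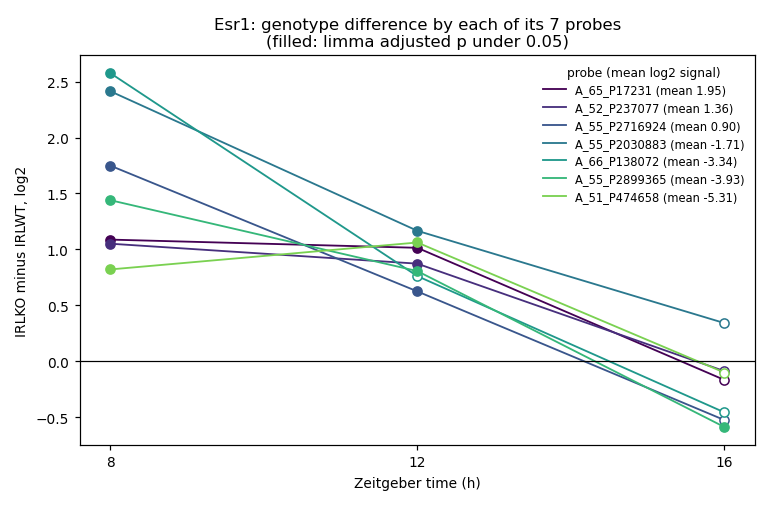
Knockout minus control log2 ratio of Esr1 by each of its 7 probes at ZT8, ZT12 and ZT16, with filled points at an adjusted p under 0.05 (limma, over all probes). Every probe is above 0 at ZT8 (0.82 to 2.58), and at ZT16 the ratios lie between -0.59 and 0.34.

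Esrra, the estrogen-related receptor that raises mitochondrial genes together with PGC-1 alpha, was higher in knockout at all 3 times, by 0.44 (1.36-fold, SE 0.09, adjusted p = 3e-04), 0.27 (adjusted p = 0.0161) and 0.31 (adjusted p = 0.00797). Only its ZT8 groups did not overlap. The ZT12 value was 0.23 (adjusted p = 0.0504) without replicate 2 of that knockout group. A dimmer Esrra probe was not called at ZT8 (0.32, adjusted p = 0.0558). By its brightest probe Nr3c2, the mineralocorticoid receptor, was lower at all 3 times. Its probe (chr8:79768704-79768763, plus strand, mm9) ran in control from 1.37 to 1.69 (median 1.55), from 0.24 to 0.84 (0.47) and from -0.62 to 0.05 (-0.32). Knockout arrays ran from 0.77 to 1.51 (1.11), from -0.45 to 0.10 (-0.16) and from -1.09 to -0.19 (-0.85). The medians of both genotypes were lower at each later time, and the genotypes were apart only at ZT12. Ratios of Nr3c2 were -0.42 (SE 0.14, adjusted p = 0.0204), -0.67 (1.59-fold lower, adjusted p = 2.9e-04) and -0.41 (adjusted p = 0.0194). The ZT8 call was lost without replicate 2 of the knockout group (-0.36, adjusted p = 0.0561), and the ZT16 call without control replicate 1 (-0.37, adjusted p = 0.0516) or 5 (-0.36, adjusted p = 0.0519) or knockout replicate 1 (-0.36, adjusted p = 0.0544). The 2 dimmer Nr3c2 probes were called lower at ZT12 alone (-0.66 and -0.74). They gave -0.28 and -0.38 at ZT8 and -0.28 and -0.33 at ZT16 (adjusted p at least 0.118).

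The orphan receptors held the widest ratio of the list, that of Nr4a2. NR4A proteins are immediate early factors that glucagon and cyclic AMP induce in hepatocytes. The Nr4a2 probe (chr2:56960000-56960059, minus strand, mm9) ran in control from -3.23 to -1.91 (median -2.94) at ZT8, from -3.55 to -3.26 (-3.32) at ZT12 and from -3.45 to -2.77 (-3.08) at ZT16. In knockout it ran from -1.89 to 2.56 (0.44), from -2.54 to -0.64 (-2.02) and from -2.43 to -0.95 (-2.22). Every knockout array lay above every control array of its time, narrowly at ZT8, where the knockout mice were also the most scattered of all 6 groups. Nr4a2 was 11.4-fold higher at ZT8 (log2 ratio 3.51, SE 0.45, adjusted p = 3.4e-07) and 2.75-fold at ZT12 (1.46, adjusted p = 0.00982). At ZT16 it was at 1.05 (adjusted p = 0.0632) and not called. An exact two-sided permutation test there, without wash batch, gave an unadjusted p = 0.00216, the smallest that 6 against 6 arrays allow. Every gene without overlap reaches that p, and 19.2% of all genes did not overlap at ZT16. The ZT8 ratio of Nr4a2 ran from 2.14 to 5.35 within wash batches and from 2.62 (normexp background correction) to 4.08 (array weights) over the alternatives, each of which kept the call. With normexp background correction the ZT12 ratio was 0.69 (adjusted p = 0.116). Without replicate 3 of the ZT8 knockout group, the ZT16 value became a call (0.99, adjusted p = 0.0205). The second Nr4a2 probe gave 3.95, 1.79 and 1.1.

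The COUP-TF genes did not move together. Nr2f1 (COUP-TFI) was higher in knockout by 0.28 (SE 0.09, adjusted p = 0.0202), 0.51 (adjusted p = 6.5e-05) and 0.62 (1.53-fold, adjusted p = 4.9e-06), with no overlap at ZT12 and ZT16. Its ZT8 call was lost without knockout replicate 3 (0.23, adjusted p = 0.0608) or 5 (0.25, adjusted p = 0.0608). All 7 endothelial markers passed the filter, and their summed level, weighted to the brightest, ran from 4.90 to 5.22 in control and from 4.86 to 5.33 in knockout at ZT8, from 4.76 to 5.08 against 5.14 to 5.69 at ZT12, and from 4.88 to 5.45 against 5.25 to 5.62 at ZT16. Their part in the Nr2f1 values was not tested. Nr2f6 was lower by 0.43 on the log2 scale at ZT8 (ratio -0.43, SE 0.06, adjusted p = 9.8e-07), and at -0.34 and -0.17 later. With the mean of its 2 probes none of the 3 Nr2f6 calls held, and the ZT16 call was also lost without control replicate 6 (-0.15, adjusted p = 0.0524) or 4 (-0.14, adjusted p = 0.0565).

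Nr2f2 (COUP-TFII; chr7:77496873-77496932, minus strand, mm9) differed little by genotype. Control arrays ran from 1.67 to 1.83 (median 1.76), from 0.71 to 1.05 (0.82) and from 0.86 to 1.34 (0.97), and knockout arrays from 1.34 to 1.74 (1.48), from 0.67 to 1.19 (0.85) and from 0.89 to 1.29 (1.19). The genotypes overlapped at all 3 times. Ratios of Nr2f2 were -0.24 (SE 0.08, adjusted p = 0.0166), 0.04 and 0.16, and the ZT8 call was lost without replicate 5 of the control group (-0.21, adjusted p = 0.0511). Nr2c2 (TR4) was higher at ZT12 (0.40, SE 0.10, adjusted p = 0.00128), and its ZT8 value of 0.25 (adjusted p = 0.046) was lost without any of 18 arrays. Nr2c1 (TR2), Nr5a2 (LRH-1, a regulator of bile acid synthesis) and Nr6a1 (GCNF) were not called by their brightest probes, with ratios between -0.15 and 0.25. A dimmer Nr2c1 probe was called lower at ZT16 (-0.67, adjusted p = 0.00166), and with the mean of its probes the ZT16 ratio was -0.34 (adjusted p = 0.0281).

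Among the factors that define hepatocytes, Cebpa was the gene called at all 3 times. Cebpa (chr7:35906517-35906576, plus strand, mm9), which drives many secreted liver proteins and enzymes, was lower in knockout without overlap at all 3 times, by log2 ratios of -0.64 (1.56-fold, SE 0.11, adjusted p = 1.6e-05), -0.56 (adjusted p = 7.9e-05) and -0.52 (adjusted p = 2.1e-04). Control arrays of Cebpa ran from 4.01 to 4.23 (median 4.08), from 3.32 to 3.77 (3.48) and from 3.36 to 3.79 (3.66), and knockout arrays from 2.98 to 3.62 (3.51), from 2.74 to 3.24 (2.98) and from 2.85 to 3.30 (3.17). Those 3 calls stood in every alternative and without any array. The summed level of the hepatocyte markers, weighted to the brightest, ran from 11.92 to 12.21 in control and from 11.39 to 12.03 in knockout at ZT8, from 12.11 to 12.23 against 11.62 to 11.97 at ZT12, and from 12.07 to 12.33 against 11.81 to 11.92 at ZT16. Its part in the lower values of Cebpa, Thrb and other members was not tested. Its relatives Cebpb and Cebpd, which are induced in the acute phase response, were not called, with ratios between -0.34 and 0.21.

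Hnf4a, the central hepatocyte receptor, was called only at ZT12 (0.31, SE 0.12, adjusted p = 0.0341), and this call was lost without any of 6 ZT12 arrays, at the least replicate 3 of the control group (0.25, adjusted p = 0.104). It was also lost in 3 of 11 alternatives, among them quantile normalization (0.19, adjusted p = 0.163). Hnf4g, a paralogue, was dim (10 of 36 arrays) and not called. Foxa1 (chr12:58641764-58641823, minus strand, mm9), a pioneer factor, ran in control from 0.95 to 2.23 (median 1.68) at ZT8, from 1.60 to 3.25 (1.92) at ZT12 and from 1.66 to 3.10 (1.97) at ZT16. Knockout arrays ran from 1.66 to 2.80 (2.54), from 1.64 to 2.86 (2.39) and from 1.44 to 2.27 (2.04). Arrays of the genotypes overlapped each time. Foxa1 was 1.78-fold higher at ZT8 (log2 ratio 0.84, SE 0.24, adjusted p = 0.00737), and at 0.15 and -0.10 later. Foxa2 was not called (0.01, -0.26 and -0.53), and Foxa3 was called lower at ZT16 (-0.63, SE 0.19, adjusted p = 0.0106), though not with just the ZT16 groups in the fit (adjusted p = 0.062). Prox1, a homeobox factor of hepatocytes and lymphatic endothelium, was lower at ZT16 (-0.46, SE 0.15, adjusted p = 0.0182), a call lost without replicate 6 of the knockout group (-0.35, adjusted p = 0.0616). The call was also lost with the mean of its probes (-0.35, adjusted p = 0.0618) and with just the ZT16 groups in the fit (-0.44, adjusted p = 0.0665). A second Prox1 probe of similar brightness was not called there (-0.25, adjusted p = 0.232).

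All 3 Krüppel-like members were called lower at ZT16, with small margins. Klf10 (chr15:38224255-38224314, minus strand, mm9), a clock-controlled and glucose-responsive repressor, ran in control from 2.48 to 3.67 (median 3.26) at ZT8, from 0.87 to 1.88 (1.18) at ZT12 and from 0.99 to 2.16 (1.1) at ZT16. In knockout it ran from 1.58 to 3.15 (2.64), from -0.44 to 0.42 (0.09) and from -0.74 to 0.93 (0.80). The groups stood apart at ZT12 and ZT16. Ratios of Klf10 were -0.63 (SE 0.26, adjusted p = 0.0615), -1.15 (2.22-fold lower, adjusted p = 7.4e-04) and -0.66 (adjusted p = 0.0436). The ZT16 value was -0.39 (adjusted p = 0.216) without replicate 6 of the control group, -0.44 (adjusted p = 0.147) without replicate 6 of the knockout group, and lost its call without 3 further arrays. Klf9, a target of glucocorticoid and thyroid hormone receptors, was at -0.54 at ZT16 (SE 0.18, adjusted p = 0.0146), and at -0.46 (adjusted p = 0.052) without replicate 6 of the control group. Klf15, a regulator of amino acid use and gluconeogenesis, was at -0.30 at ZT16 without overlap (SE 0.11, adjusted p = 0.0363), and at -0.25 (adjusted p = 0.102) without that control array, 1 of 6 whose removal ended the call. It was also lost in 5 of 11 alternatives, among them the authors' table (-0.16, adjusted p = 0.221) and quantile normalization (-0.23, adjusted p = 0.0936). Those 2 settings called Klf15 higher at ZT12 (0.34, adjusted p = 0.00884, and 0.27, adjusted p = 0.0439), where the main fit did not (0.18, adjusted p = 0.217).

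Time of day moved many of these genes in control. Of the 37, 24 were called between ZT8 and ZT16 in control (64.9%, against 26.6% of all genes), 9 up (13.4% of all genes) and 15 down (13.2%). In knockout, 16 were called (43.2%, against 28.9%), 4 up (15.5%) and 12 down (13.4%). Arrays of the 2 times did not overlap for 15 genes in control and 7 in knockout, against 15.8% and 9.89% of all genes. Nr4a2 fell by 2.76 on the log2 scale in knockout (adjusted p = 1.8e-05), the widest change of the list, and was at -0.30 in control (adjusted p = 0.699). Klf10 fell by 1.94 in control (SE 0.26, adjusted p = 1.2e-06) and by 1.98 in knockout (adjusted p = 8.3e-07). Nr3c2 fell by 1.86 in either genotype (SE 0.14, adjusted p = 3e-11 and 4.3e-11), or 3.63-fold and 3.62-fold, and the difference between these changes was 0.00 (SE 0.20, adjusted p = 0.995). Klf9 fell by 1.00 and 1.22, and Pparg fell by 0.88 and 1.27. Ppard (chr17:28438298-28438357, plus strand, mm9) rose 2.89-fold in control (1.53, SE 0.22, adjusted p = 2.4e-06) and 2.23-fold in knockout (1.16, adjusted p = 1.1e-04).

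Ppard arrays ran in control from -0.39 to -0.13 (median -0.21) at ZT8, from 0.30 to 1.04 (0.69) at ZT12 and from 0.37 to 2.42 (1.09) at ZT16. In knockout they ran from -0.19 to 0.14 (-0.02), from 0.05 to 0.47 (0.26) and from 0.74 to 1.80 (1.02). The gene was thus higher at ZT16 than at ZT8 on every array of either genotype, and most scattered in control at ZT16. Prox1 rose by 0.91 in control (adjusted p = 3.2e-05) and 0.68 in knockout (adjusted p = 9.1e-04) by its brightest probe. A second Prox1 probe of similar brightness rose by 0.51 in control (adjusted p = 0.0184), and was at 0.08 in knockout (adjusted p = 0.76). Calls in control and in knockout coincided for 14 genes, with 1 sign for 12 of these and opposite signs for Nr1i2 and Thra. By the brightest probe, Nr2f1 and Nr4a2 were called in knockout alone, and 10 genes in control alone, among them Esr1, Hnf4a, Foxa2, Cebpd and Nr1h2. A call in a single genotype does not show that the changes differ, which the next tests address.

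**Figure D4:**
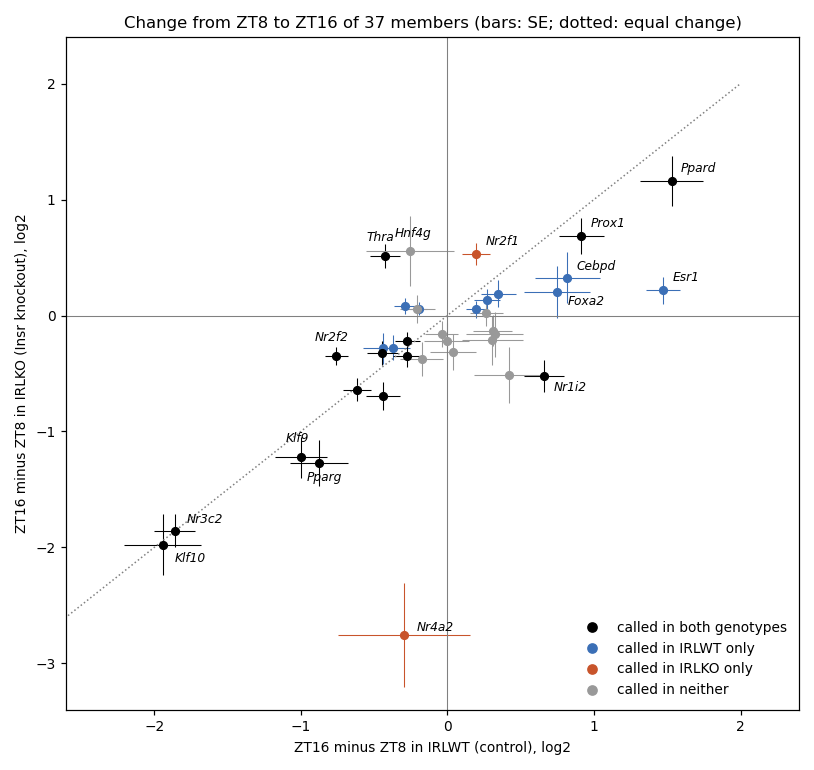
Log2 change from ZT8 to ZT16 of the 37 genes in control (horizontal) against knockout (vertical), with standard errors of the limma fit and a dotted line of equal change, coloured by the genotype in which the change was called. Klf10, Nr3c2, Klf9, Ppard and Prox1 lie near the line, Esr1 lies at 1.47 in control and 0.22 in knockout, Nr4a2 at -0.30 and -2.76, and Nr1i2 and Thra lie in the quadrants of opposite sign. Each gene is shown by its brightest probe, and some other probes of Prox1 and Esr1 gave lower values in knockout.

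The genotype effect itself differed across the 3 times for 7 of the 37 genes by a moderated F test (18.9%, against 8.46% of all genes): Nr1h2, Nr1i2, Nr2f2, Nr4a2, Rxrg, Thra and Esr1. Esr1 had the smallest adjusted p of these (7.1e-06). By its brightest probe, its control arrays rose by 1.47 from ZT8 to ZT16 (2.78-fold, SE 0.12, adjusted p = 6.1e-11) and its knockout arrays by 0.22 (adjusted p = 0.169). In knockout, dimmer Esr1 probes were called lower at ZT16, with changes of -1.63, -1.395 and -0.85 (adjusted p at most 0.00393). The other Esr1 probes lay between 0.16 and 0.34 there. The genotype effect on Esr1 at ZT16 minus that at ZT8 was -1.25 (SE 0.16, adjusted p = 8.1e-06). For Thra it was 0.94 (SE 0.14, adjusted p = 7.6e-05), where control fell by 0.43 and knockout rose by 0.51. For Nr1i2 it was -1.18 (SE 0.19, adjusted p = 1.8e-04), where control rose by 0.66 and knockout fell by 0.52. Nr4a2 had -2.46 (SE 0.64, adjusted p = 0.0112), Nr2f2 0.41 (SE 0.11, adjusted p = 0.0177) and Nr1h2 0.37 (SE 0.10, adjusted p = 0.0128). With the mean of its 2 probes, the Nr1h2 difference was 0.12 (adjusted p = 0.653). The Rxrg effect was widest at ZT12, and its difference between ZT16 and ZT8 was -0.52 (adjusted p = 0.308). By the ZT16 minus ZT8 difference alone 7 genes were called, 4 above 0 and 3 below, against 9.75%, 5.44% and 4.32% of all genes, with Nr2f6 (0.26, adjusted p = 0.0481) in place of Rxrg.

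Genes known to act with these receptors, or to be regulated by them, were counted from 11 lists drawn up with earlier results of these data known. Over all genes tested, 16.7%, 19.6% and 19.9% were higher at ZT8, ZT12 and ZT16, and 18.7%, 22.6% and, at ZT16, 4611 of 23054 were lower, so list shares near these are no result about a list. Of the other nuclear receptors, 15 of 20 passed the filter and were called higher for 1 and lower for 7, 6 and 8 at ZT8, ZT12 and ZT16. Nr1h4, the bile acid receptor FXR, had ratios of -0.53, -1.21 and -1.42, and Nr3c1, the glucocorticoid receptor, -0.38, -0.56 and -0.67, all called. Of 13 other C/EBP and Krüppel-like genes, 5, 5 and 3 were higher and 2, 2 and 3 lower. Cebpe was at -1.94, -2.29 and -1.28, and Klf6 at 0.80, 0.91 and 0.93. Of 25 other hepatocyte factors, 2, 3 and 4 were higher and 5, 7 and 7 lower, with Srebf1, the lipogenic factor that insulin induces, at -1.80, -1.48 and -1.12. Of 23 coactivators and corepressors, 9, 10 and 5 were higher and 4 lower at each time. Ppargc1a, the PGC-1 alpha coactivator of fasting, was at 2.19, 2.20 and 1.89, and Hdac3, the corepressor deacetylase, at -0.45, -0.48 and -0.49.

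Targets of CAR and PXR were called higher for 8, 8 and 3 of 17 and lower for 1, 2 and 0, with median log2 ratios of 0.38, 0.35 and 0.18. The ZT16 share higher (3 of 17) was near that of all genes (19.9%). Slco1a4, an organic anion transporter, was at 1.93, 1.51 and 0.99, and Por, the P450 reductase, at 1.38, 0.86 and 0.18, the last not called (adjusted p = 0.31). Nr1i3 itself was called higher at none of these times, and Nr1i2 at ZT8 alone. Retinoic acid targets and retinoid enzymes were higher for 1, 2 and 1 of 11 and lower for 4, 2 and 2. Aldh1a1, a retinaldehyde dehydrogenase, was at -2.48, -2.91 and -2.91. Thyroid hormone targets were higher for 3, 2 and 2 of 8 and lower for 3, 4 and 3, with the lipogenic Thrsp at -2.86, -4.46 and -5.08 and the hormone transporter Slc16a10 at 1.27, 1.03 and 0.98.

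LXR targets were higher for 2, 3 and 5 of 15 and lower for 5, 6 and 6. Abcg1, a sterol exporter, was at 1.25, 1.67 and 1.53 and the desaturase Scd1 at -2.28, -2.16 and -1.84, so this list had no common direction. PPAR gamma and delta targets were higher for 1, 2 and 1 of 15 and lower for 4, 6 and 5, with Mogat1, an enzyme of triglyceride synthesis, at -0.92, -1.31 and -0.68 and Fabp2 at -3.16, -3.66 and -3.33. C/EBP targets were higher for 3, 2 and 2 of 13 and lower for 4, 6 and 8. Alb, the albumin gene, was at -0.41, -0.35 and -0.39 and Pck1, the gluconeogenic kinase, at 1.39, 1.42 and 1.28. Targets of ERR alpha were higher for 4, 1 and 0 of 11 and lower for 0, 1 and 3, while Esrra was higher throughout.

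**Figure D5:**
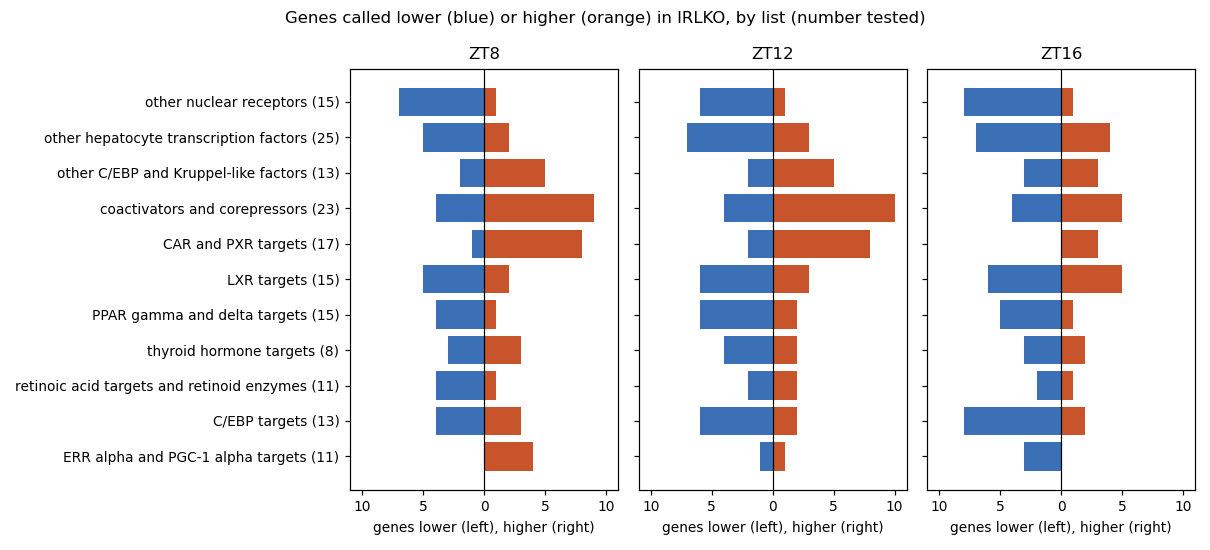
Number of genes called higher (right, orange) or lower (left, blue) in knockout in each of 11 lists at ZT8, ZT12 and ZT16, with the number tested in brackets (limma, adjusted p under 0.05; over all genes 16.7%, 19.6% and 19.9% were higher). Other nuclear receptors lie mostly on the left (7, 6 and 8 of 15 lower), and CAR and PXR targets mostly on the right (8, 8 and 3 of 17 higher).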

How the data were processed

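Per the labels, 200 ng of liver RNA was labelled with 1 dye and hybridised to Agilent mouse arrays. Per the file headers, intensity values come from Agilent's Feature Extraction 10.10.1.1. The deposited processed signal is background subtracted but not scaled between arrays. The spot flags (well above background, outlier) are other values, 0 or 1, per the file headers. The authors' deposited table of log2 values is quantile normalized, and how it was made is not given in the sources used here. It served as an alternative.

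Processed signals were taken to log2, and the 75th percentile of an array, controls left out, was subtracted. Outlier spots were dropped, spots of a probe averaged, and a probe was retained if at least 6 of the 36 arrays had it well above background (34771, of which 93 with missing values were dropped). The brightest probe stood for a gene. limma 3.58.1 (R 4.3.3) fitted all 36 arrays with 6 group means and wash batch (3, each with all groups), with Benjamini-Hochberg adjustment over 23054 genes and a threshold of 0.05. In simulated data with 200 of the 23054 genes changed, at ZT8 alone, it recovered 42% of changes of 0.5 and 79% of changes of 1 (log2). In the real data 35.4% of genes were called at ZT8, so these shares are not the recovery rates of the real fit. Two-sided exact permutation tests of 6 against 6 arrays went beside it. Alternatives were 11 settings and the removal of each array. Described in full are members called with a genotype ratio of at least 0.8 (log2), those past the F test and the 4 with the widest called time change; of each list, up to 3 genes with the smallest p. The members and lists were chosen with earlier results of these data known. The retinoic acid and cyclic AMP motifs, and the promoters printed, were chosen after values were seen. Replicates are separate mice per the labels. Arrays give no counts, so their number limits the precision. Probe positions are on mm9, and exons were not analysed here. A list and 2 further genes are not reported here.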

Additional observations from a re-analysis of the deposited data

Results flagged for a closer look

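In the 14 genes described in full, 84 groups of 6 arrays were searched for a value far from the other 5, and 12 were found, where chance alone gives about 1 in 20, or 4.2. The ZT16 knockout replicate 6 stood out for 4 genes. Nr1h2 was 3.21 on it (others 3.48 to 3.62), Nr2f2 0.89 (others 1.16 to 1.29), Klf10 -0.74 (others 0.76 to 0.93) and Nr4a2 -0.95 (others -2.43 to -2.10). Klf10 also stood apart at 2.16 on ZT16 control replicate 6 (others 0.99 to 1.40) and at 1.58 on ZT8 knockout replicate 3 (others 2.57 to 3.15). Nr4a2 was -0.64 on ZT12 knockout replicate 4 (others -2.54 to -1.92). For Esr1, ZT8 control replicate 4 was at 1.12 (others 0.49 to 0.67), ZT12 control replicate 5 at 1.57 (others 2.09 to 2.28) and ZT8 knockout replicate 1 at 2.21 (others 1.57 to 1.79). Pparg was 3.06 on ZT12 control replicate 5 (others 1.92 to 2.32), and Rarg 0.77 on ZT12 control replicate 3 (others 0.46 to 0.53).

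The genotype effect differed between times for 7 genes by the moderated F test of limma. The ZT16 minus ZT8 difference of that effect was 0.37 for Nr1h2, -1.18 for Nr1i2, 0.41 for Nr2f2, -2.46 for Nr4a2, -0.52 for Rxrg, 0.94 for Thra and -1.25 for Esr1. With the mean of its 2 probes the value of Nr1h2 was 0.12 (adjusted p = 0.653).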

How the results depend on the processing

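Leaving out each array in turn gave 15 to 18 members called at ZT8, 19 to 21 at ZT12, 15 to 22 at ZT16, 20 to 25 for ZT16 minus ZT8 in control, 15 to 21 in knockout, 5 to 9 by the F test and 6 to 9 for the outer difference. With only the groups compared in the fit, 10 were called at ZT8 instead of 17, and with array weights 13 passed the F test instead of 7; the cause was not tested. With the replicate block the counts were 15, 20, 17, 23, 17, 5 and 6. Replicate numbers did not pair the mice: 76 of 90 same-numbered pairs correlated below 0.1 (median 0.02, against 0.0054 for other pairs).

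Of 56 genotype calls, 30 held in all 11 alternatives and without any array, and 26 were lost in some. Of 55 values not called, 16 were called in some. No genotype value reversed, but with the mean of its 7 probes the ZT16 minus ZT8 change of Esr1 in knockout was -0.41 instead of 0.22. Dimmer Esr1 probes were called lower there, at -1.63, -1.395 and -0.85, while the others lay between 0.16 and 0.34. Why the Esr1 probes differ was not tested. Of 28 calls in the genes described in full, 27 kept their sign in all 3 wash batches, the exception being Nr1h2 at ZT16 (-0.04 in 1 batch). Exact permutation p, unadjusted and without wash batch, was under 0.05 for all 28, and for 33 of the 42 tests run in these genes. The genes and calls were picked by limma on the same arrays, so this is no separate evidence. Dim probes such as that of Hnf4g limit what can be seen.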
